A study of Homo sapiens with 9 samples.

Results

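The genes described here are 10 mucin and goblet cell genes, chosen by name and found in the count files by NCBI Gene ID: the membrane mucin genes MUC1, MUC3A, MUC12, MUC13 and MUC17, the secreted mucin genes MUC2 and MUC5AC, the trefoil factor genes TFF1 and TFF3, and the transcription factor gene SPDEF. They are 10 of the 28395 genes in each file, and 7 of them had enough counts for testing among 16017 tested genes. The cells were wild-type Caco-2, a human colon carcinoma line grown until it forms a differentiated, enterocyte-like layer. They were exposed for 24 h to 10 µM carmine, to 20 µM carminic acid, or to culture medium with no colorant (control), with 3 samples per group, called A, B and C, and total RNA was sequenced. Carminic acid is a red anthraquinone dye from cochineal insects, and carmine is a complex of it with aluminium. The stated concentrations differ, so values of the colorants stand side by side with no test between them.

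Mucins are large proteins whose serine- and threonine-rich repeats carry dense chains of O-linked sugars. Secreted mucins such as MUC2, the main gel former of the colon, and MUC5AC, that of the stomach surface, are stored in goblet or mucous cells and released as mucus. Membrane mucins are anchored in the apical membrane and form the sugar coat (glycocalyx) over enterocyte microvilli. Trefoil factors are small secreted peptides that accompany mucus and assist epithelial repair, and SPDEF drives goblet cell maturation downstream of the secretory lineage factor ATOH1.

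Total counts lay between 54871018 and 57581301 per library. Whether A, B and C were separate cultures is not stated in the labels, and the p-values below therefore cover only the variation among these 9 libraries, part or all of which may be technical. All 9 enterocyte markers fixed for the check were detected, among them VIL1 and SI, with a summed level of 5648 to 6232 CPM with carmine, 5753 to 6215 CPM with carminic acid and, in control, 5507 to 5709 CPM (CPM, a gene's counts scaled to a fixed library total with TMM factors). Carmine library C stood apart on the first principal component of log2 CPM (20.9% of the variance), at 34.5 where the other 8 libraries lay between -19.4 and 14.5. Control library A stood apart for 3 members, as described with them.

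The promoter sequences of 4 members are shown as a description, and no result below depends on the sequences. These members are MUC13, which had the highest level, and MUC3A, MUC12 and MUC17, neighbours on chromosome 7 that varied together between libraries. Each sequence runs 5′ to 3′ on the gene's strand over 300 bases around the RefSeq start in GRCh38.p14 (250 before it, 50 from it on). The letters of searched motifs are in capitals.
MUC13, chr3:124934702-124935001, - strand: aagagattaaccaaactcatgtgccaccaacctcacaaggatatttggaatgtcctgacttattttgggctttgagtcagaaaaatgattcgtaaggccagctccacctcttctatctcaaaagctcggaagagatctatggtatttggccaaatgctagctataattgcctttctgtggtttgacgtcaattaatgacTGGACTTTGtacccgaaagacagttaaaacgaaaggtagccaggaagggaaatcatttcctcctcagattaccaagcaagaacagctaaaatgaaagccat
MUC3A, chr7:100949284-100949583, + strand: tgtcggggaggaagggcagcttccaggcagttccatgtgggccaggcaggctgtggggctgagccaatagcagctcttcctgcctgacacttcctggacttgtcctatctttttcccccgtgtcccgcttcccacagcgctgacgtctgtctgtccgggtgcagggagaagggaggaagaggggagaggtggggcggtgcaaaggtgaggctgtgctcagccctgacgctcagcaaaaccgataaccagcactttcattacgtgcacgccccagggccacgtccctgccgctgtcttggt
MUC12, chr7:100969315-100969614, + strand: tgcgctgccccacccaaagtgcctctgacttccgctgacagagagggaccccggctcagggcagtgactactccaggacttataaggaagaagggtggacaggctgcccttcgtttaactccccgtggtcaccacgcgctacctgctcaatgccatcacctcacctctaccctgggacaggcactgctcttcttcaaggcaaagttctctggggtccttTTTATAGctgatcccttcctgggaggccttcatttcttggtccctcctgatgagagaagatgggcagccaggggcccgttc
MUC17, chr7:101019831-101020130, + strand: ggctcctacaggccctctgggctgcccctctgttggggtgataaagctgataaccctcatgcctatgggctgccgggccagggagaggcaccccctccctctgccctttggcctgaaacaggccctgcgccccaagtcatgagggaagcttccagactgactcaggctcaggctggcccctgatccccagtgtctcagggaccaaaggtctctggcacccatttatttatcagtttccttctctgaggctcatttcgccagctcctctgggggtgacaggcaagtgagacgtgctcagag
The motifs searched on both strands were AGATAA for factors of the GATA family, TTTATNG for CDX factors, CAAAGTCCA for HNF4 and TATAAA for the TATA box, which 10.3%, 9.73%, 0.384% and 11.5% of 35116 RefSeq promoter sequences of this length hold. MUC13 holds the HNF4 letters, on the opposite strand from position -51 relative to the start. MUC12 holds the CDX letters from position -31, overlapping the TATA letters on the opposite strand. MUC3A and MUC17 hold none of the 4 in this window. Among members whose promoters are not shown, MUC2, with 3 counts in all, holds the CDX letters, and MUC1 holds the TATA letters. A match is a description of letters and not evidence that a factor binds there.

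MUC13, a membrane mucin of the intestinal brush border, was the leading member by far. It took 65.7% to 79.0% of the counts of the 10 genes in each library and ranked at place 283 of all genes by mean CPM. Per kb of the longest GENCODE transcript, which adjusts for length only, its level was 156 ± 11.6 CPM per kb (SD over all 9 libraries). TFF3 followed with 15.1 ± 3.57 and TFF1 with 14.6 ± 0.735 CPM per kb, and their ranges overlapped (11.4 to 23.4 and 13.4 to 15.5). MUC3A was next at 8.67 ± 1.92 CPM per kb, with a range (6.55 to 13.2) that overlapped that of TFF3 but not that of TFF1. MUC17, MUC1 and MUC12 had 1.55 ± 0.258, 0.789 ± 0.127 and 0.278 ± 0.0871 CPM per kb, with no overlap between their ranges. The low places of MUC1 and MUC12 carry a limit, since repeats inside their transcripts, described below, may affect their counts.

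**Figure D1:**
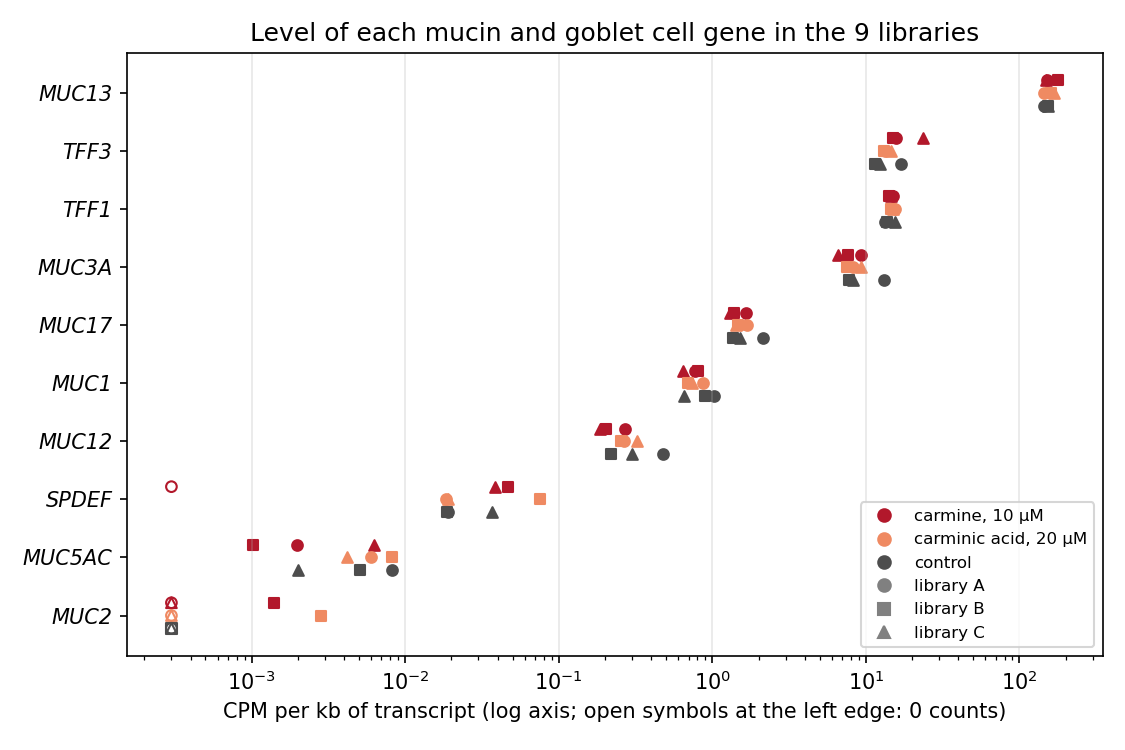
Level of the 10 genes in each library, as CPM per kb of transcript on a log axis, with 1 symbol per library; open symbols at the left edge stand for 0 counts. MUC13 lay between 144 and 179 CPM per kb, while SPDEF, MUC5AC and MUC2 did not exceed 0.0754 CPM per kb in any library.

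The secreted mucin genes among the members, MUC2 and MUC5AC, and SPDEF were at the limit of detection in every group. MUC5B and MUC19, gel mucin genes outside the members, were tested and averaged 0.162 and 0.819 CPM. MUC2 (Gene ID 4583, chromosome 11, 1074874 to 1110508) had 1 count in carmine library B, 2 counts in carminic acid library B and 0 in the other 7 libraries, control included. A count of 0 allows up to 3 counts, or 0.0547 CPM in the smallest library, and covers counting error only. MUC5AC (4586, chromosome 11, 1157953 to 1201138) had 2, 1 and 6 counts with carmine, 6, 8 and 4 counts with carminic acid and, in control, 8, 5 and 2 counts. SPDEF (25803, chromosome 6, 34537802 to 34556329) had 0, 5 and 4 counts with carmine, 2, 8 and 2 counts with carminic acid and, in control, 2, 2 and 4 counts. The groups overlapped for each of these 3 genes, no fold change is given, and a difference between groups was not detectable at this depth. ATOH1, the factor that starts the secretory lineage, had 0 counts in all 9 libraries.

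The 6 other markers of goblet cells fixed for the check differed widely in level. Of these 5 were tested, and the summed level of the 6 was 111 to 137 CPM with carmine, 105 to 125 CPM with carminic acid and 102 to 114 CPM in control. Most of it was ZG16, a lectin of secretory granules, at 98.8 CPM on average, while RETNLB was at the limit of detection, with 4 counts in all, none of them in a treated library. FCGBP (an IgG-binding mucus protein), ITLN1 (intelectin), SPINK4 and CLCA1 averaged 9.23, 6.61, 0.345 and 0.168 CPM. In bulk samples, fewer cells of a type and less RNA per cell cannot be told apart. Of gastric mucous and pit cell markers, TFF2 averaged 16.8 CPM and CLDN18 0.711 CPM, MUC6 had 2 counts in all and GKN1 and GKN2 had 0. Paneth markers were LYZ at 11.6 CPM, REG3A at 0.213 CPM, DEFA6 with 6 counts in all and DEFA5 with 0. Of 6 enteroendocrine markers 2 were tested, CHGB at 2.55 and PYY at 0.143 CPM, and 4 of 6 stromal, endothelial and immune markers, with COL1A1 at 117 CPM and PTPRC with 8 counts, all of them in carmine libraries.

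No member differed from control past an adjusted p of 0.05 in edgeR's quasi-likelihood test with either colorant, where 0% of all tested genes passed in the carmine comparison and 0% in the carminic acid comparison. At an unadjusted p under 0.05 there were 2 of 7 members with carmine (11% of all tested genes) and 0 of 7 with carminic acid (6.43% of all tested genes). With carmine the count was 0 without carmine C, 1 without control A, 1 without carmine B and 3 without control B, and with carminic acid it was 1 without control B. DESeq2 and limma-voom (with library quality weights) also called 0 members in each comparison. Over all genes they called 75 and 51 with carmine and 8 and 82 with carminic acid. Groups overlapped for all 7 tested members in each comparison. Among all tested genes, groups did not overlap for 15% with carmine and 20.8% with carminic acid. The median log2 fold change of the 7 was -0.21 with carmine (all tested genes 0.01) and -0.13 with carminic acid (all tested genes -0.01). The comparisons share the control libraries.

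MUC13 (56667, chromosome 3, 124905442 to 124934751) stood at 438, 515 and 426 CPM in carmine libraries A, B and C, at 415, 462 and 487 CPM with carminic acid, and at 417, 442 and 442 CPM in control. Carmine library B was the highest, and 2 carmine libraries and 1 carminic acid library lay below the middle control library. The mean was 460 ± 48.3 CPM with carmine and 455 ± 36.6 CPM with carminic acid, against 434 ± 14.6 CPM in control (SD, n = 3). The log2 fold changes were 0.08 with carmine (95% interval -0.10 to 0.26, edgeR adjusted p = 0.713) and 0.07 with carminic acid (-0.11 to 0.25, edgeR adjusted p = 0.817). The intervals span a fold of 0.935 to 1.20 with carmine and of 0.925 to 1.19 with carminic acid, the narrowest of the membrane mucins. Without carmine library B the value for carmine was -0.01.

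The 5 tested genes whose log2 CPM was most like that of MUC13 over the 9 libraries were RAB1A, a GTPase of transport between endoplasmic reticulum and Golgi (Pearson r = 0.948), ST13, an HSP70 co-chaperone (0.929), ANKRD40CL (0.925), PLIN2, a lipid droplet coat protein (0.917), and RPL23, a ribosomal protein (0.916). These are descriptions with no test: the libraries share their differences in depth and composition, and the genes are the highest of 16017.

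MUC3A, MUC12 and MUC17 encode membrane mucins of the small and large intestine and lie in a row on chromosome 7, at 100949534 to 100968347, 100969565 to 101018936 and 101020081 to 101058859. MUC3A (4584) stood at 105, 85.9 and 73.5 CPM in carmine libraries A, B and C, at 92.7, 84.7 and 104.7 CPM with carminic acid, and at 148, 87.4 and 93.3 CPM in control. Control A lay above every other library, and the other 2 control libraries lay within the range of the treated ones. The log2 fold change was -0.31 with carmine (95% interval -0.79 to 0.16, edgeR adjusted p = 0.585) and -0.22 with carminic acid (-0.70 to 0.26, edgeR adjusted p = 0.780).

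MUC12 (10071) stood at 4.50, 3.42 and 3.10 CPM with carmine, at 4.47, 4.29 and 5.39 CPM with carminic acid, and at 8.01, 3.67 and 4.99 CPM in control. Control A was again the highest, and carmine C and carmine B were the lowest of all 9. It had the largest log2 fold change of the members with carmine, -0.60 (SE 0.238, 95% interval -1.11 to -0.08, edgeR unadjusted p = 0.0258 and adjusted p = 0.417), and -0.24 with carminic acid (-0.74 to 0.27, edgeR adjusted p = 0.785). Without control A the values were -0.24 with carmine and 0.11 with carminic acid, and without control B -0.82 and -0.47.

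MUC17 (140453) stood at 23.8, 19.7 and 18.5 CPM with carmine, at 23.9, 21.1 and 20.3 CPM with carminic acid, and at 30.6, 19.4 and 21.5 CPM in control. The order of libraries repeated that of its neighbours at both ends, with control A highest and carmine C lowest. The log2 fold change was -0.21 with carmine (95% interval -0.53 to 0.12, edgeR adjusted p = 0.606) and -0.13 with carminic acid (-0.45 to 0.19, edgeR adjusted p = 0.801). Without control A, MUC3A had values of -0.04 with carmine and 0.05 with carminic acid, and MUC17 of 0.01 and 0.08.

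**Figure D2:**
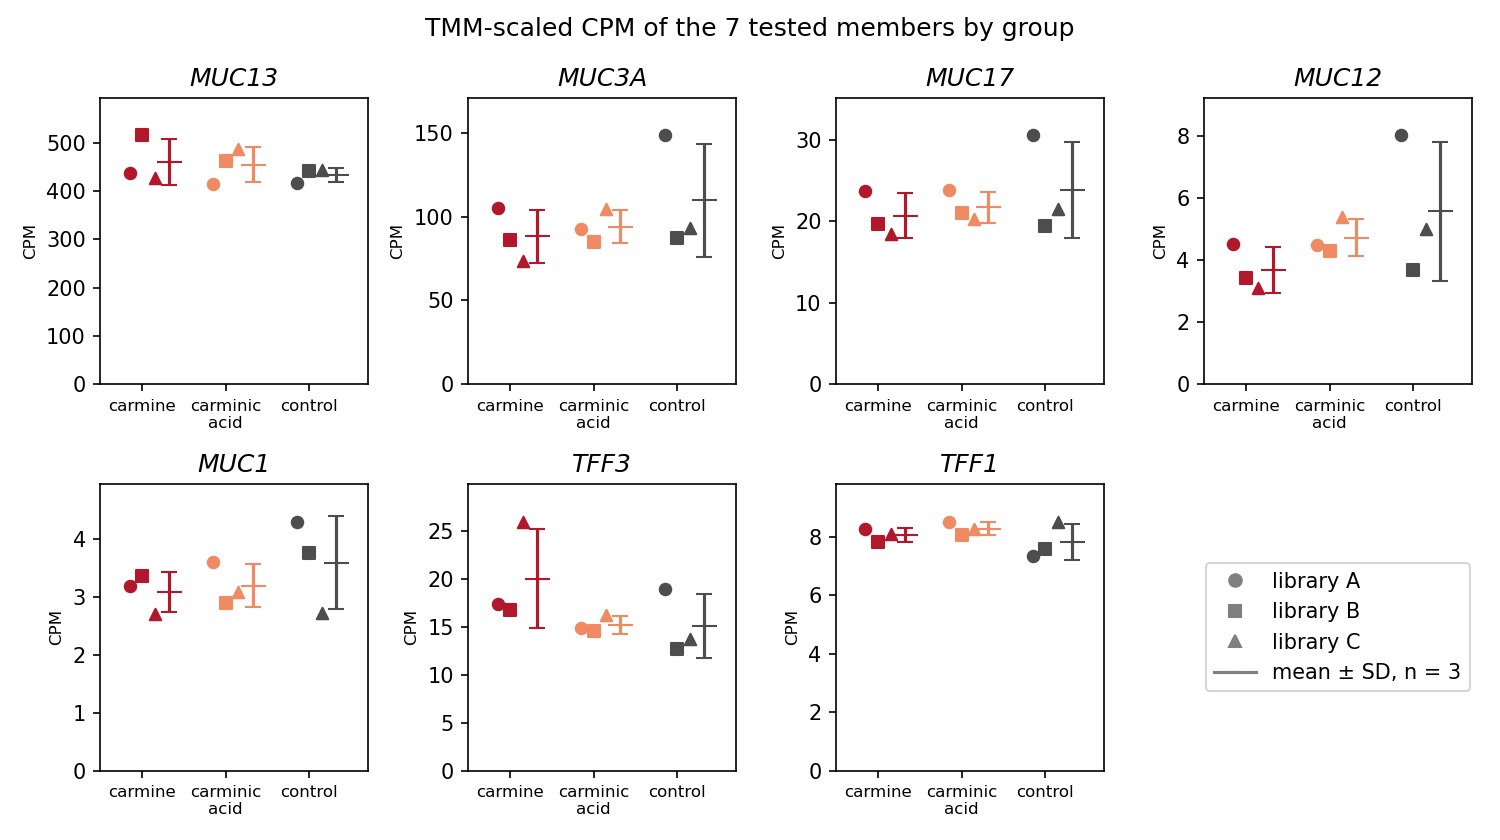
TMM-scaled CPM of the 7 tested members in carmine, carminic acid and control libraries, with 1 symbol per library and the mean ± SD of 3 beside them. For MUC3A, MUC12 and MUC17 control A (148, 8.01 and 30.6 CPM) is the highest library, and for TFF3 carmine C (25.97 CPM) is.

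Levels of the 3 adjacent genes were correlated over the 9 libraries. The libraries share differences in depth and composition, which the permutation does not remove, and the share of all gene pairs with such values was not computed. Pearson's r of log2 CPM was 0.937 for MUC3A with MUC12 (exact permutation p = 4.685e-04, two-sided; adjusted over the 21 pairs of tested members, 0.00984), with Spearman's rho 0.900 (exact permutation p = 0.00203, adjusted 0.0426). For MUC3A with MUC17, r was 0.889 (exact permutation p = 0.00417, adjusted 0.0438) and rho 0.733 (exact permutation p = 0.0311, adjusted 0.218). For MUC12 with MUC17, r was 0.852 (exact permutation p = 0.00663, adjusted 0.0464) and rho 0.750 (exact permutation p = 0.0255, adjusted 0.218). None of the other 18 pairs passed after adjustment (lowest adjusted p = 0.198, exact permutation). With each group's mean removed, r was 0.959, 0.871 and 0.859 for these 3 pairs. Without control A and carmine C, the libraries farthest from the median of the first gene, r was 0.708, 0.442 and 0.389 (exact permutation p = 0.0730, 0.308 and 0.382). None of the 3 relations then passed. Leaving out the farthest libraries narrows the range, which tends to lower r for any linear relation. Without control A alone, r was 0.834, 0.646 and 0.595, and none of the 3 relations passed after adjustment. How far the relations rest on these libraries was not tested.

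**Figure D3:**
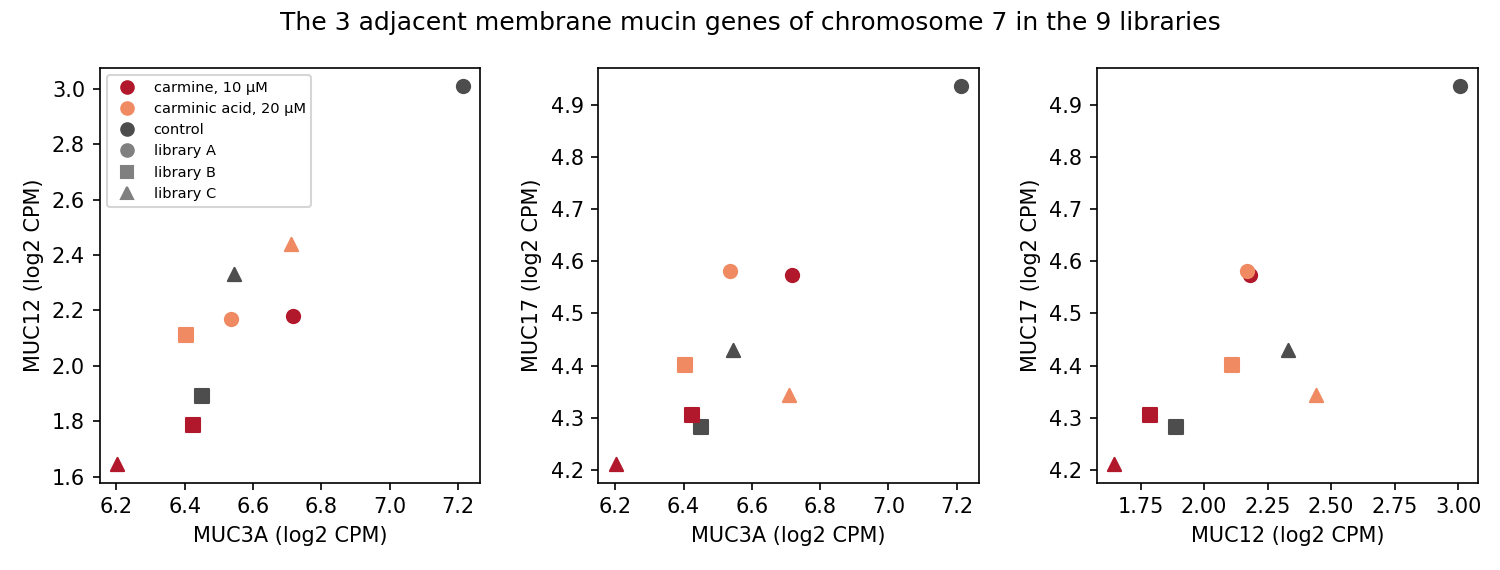
Log2 CPM of MUC3A, MUC12 and MUC17 against each other, with 1 symbol per library. Control A lies at the upper right and carmine C at the lower left of each panel, and r falls to 0.708, 0.442 and 0.389 without them.

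In control A the 3 genes lay 0.64 (MUC3A), 0.83 (MUC12) and 0.48 (MUC17) above their own mean log2 CPM over the 9 libraries. Deviations at least that large in this library were seen for 2.72%, 1.20% and 4.93% of all tested genes. The 34 other tested genes within 500000 bases of them had deviations in control A from -0.68 to 0.77 with a median of -0.002. Of the 34, 6 were highest in control A, against 10.8% of all tested genes. TRIM56, the next tested gene after MUC17, had 0.15 and was also highest in control A, and ACHE, the next tested one before MUC3A, had -0.04. These neighbours were chosen for their place. With the trends of each library with transcript length and GC content removed, the 3 deviations were 0.52, 0.65 and 0.34.

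The counts of these mucins carry a limit from their repeats. Of all 50-base windows of the longest transcript, 61.5% were repeated inside the transcript for MUC12, 42.4% for MUC1, 8.6% for MUC17, 1.9% for MUC3A and 0.0% for MUC13. For MUC3A 3.7% of windows also occur in another annotated gene, AC254629.1, and for MUC17 1.5% in RN7SKP54, which overlaps it. Neither the strand setting nor the counting of reads that fit several places is given in the sources used here. MUC12-AS1, which overlaps MUC12, had 7 counts in all.

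MUC1 (4582, chromosome 1, 155185824 to 155192915), a membrane mucin found on most glandular epithelia, stood at 3.19, 3.37 and 2.697 CPM with carmine, at 3.61, 2.89 and 3.08 CPM with carminic acid, and at 4.30, 3.76 and 2.72 CPM in control. Control held both the highest library and one of the lowest. The log2 fold changes were -0.22 with carmine (95% interval -0.60 to 0.16, edgeR adjusted p = 0.644) and -0.17 with carminic acid (-0.55 to 0.21, edgeR adjusted p = 0.792). With 1 library left out they ran from -0.38 (without control C) to -0.07 (without control A) with carmine and from -0.34 to -0.03, without the same libraries, with carminic acid.

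TFF3 (7033, chromosome 21, 42311667 to 42315409), the trefoil factor of intestinal goblet cells, stood at 17.3, 16.8 and 25.97 CPM in carmine libraries A, B and C, at 14.8, 14.5 and 16.3 CPM with carminic acid, and at 18.9, 12.6 and 13.7 CPM in control. Carmine C was the highest library, but control A lay above the other 2 carmine libraries. The mean was 20.0 ± 5.16 CPM with carmine and 15.2 ± 0.928 CPM with carminic acid, against 15.1 ± 3.37 CPM in control (SD, n = 3). The log2 fold change was 0.41 with carmine (SE 0.174, 95% interval 0.03 to 0.78, edgeR unadjusted p = 0.0350 and adjusted p = 0.436) and 0.01 with carminic acid (-0.36 to 0.39, edgeR adjusted p = 0.984). Without carmine C, the library that stood apart on the first component, the value for carmine was 0.18, and without control A it was 0.60. In carmine C TFF3 lay 0.66 above its mean log2 CPM, a deviation that 2.01% of all tested genes reached or passed in this library, and 24.3% of genes were highest in that library. Over all tested genes with a transcript, deviations in carmine C went with transcript length at a Spearman's rho of -0.370 and with GC content at 0.491, which is a description across genes. In the other libraries the values ran from -0.117 to 0.235 for length and, for GC content, from -0.499 in control C to 0.558 in carminic acid B. With these trends removed in every library, the log2 fold change with carmine was 0.37 for TFF3 (edgeR adjusted p = 0.225) and -0.44 for MUC12 (edgeR adjusted p = 0.276).

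TFF1 (7031, chromosome 21, 42362282 to 42366535), the trefoil factor of the stomach surface, varied least, with a coefficient of variation of 5.02% over all libraries. It stood at 8.29, 7.82 and 8.09 CPM with carmine, at 8.51, 8.07 and 8.29 CPM with carminic acid, and at 7.36, 7.58 and 8.53 CPM in control, so the groups overlapped. The log2 fold changes were 0.04 with carmine (95% interval -0.18 to 0.26, edgeR adjusted p = 0.892) and 0.08 with carminic acid (-0.14 to 0.30, edgeR adjusted p = 0.814). TFF2, the third trefoil factor gene, had 0.18 and 0.07.

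**Figure D4:**
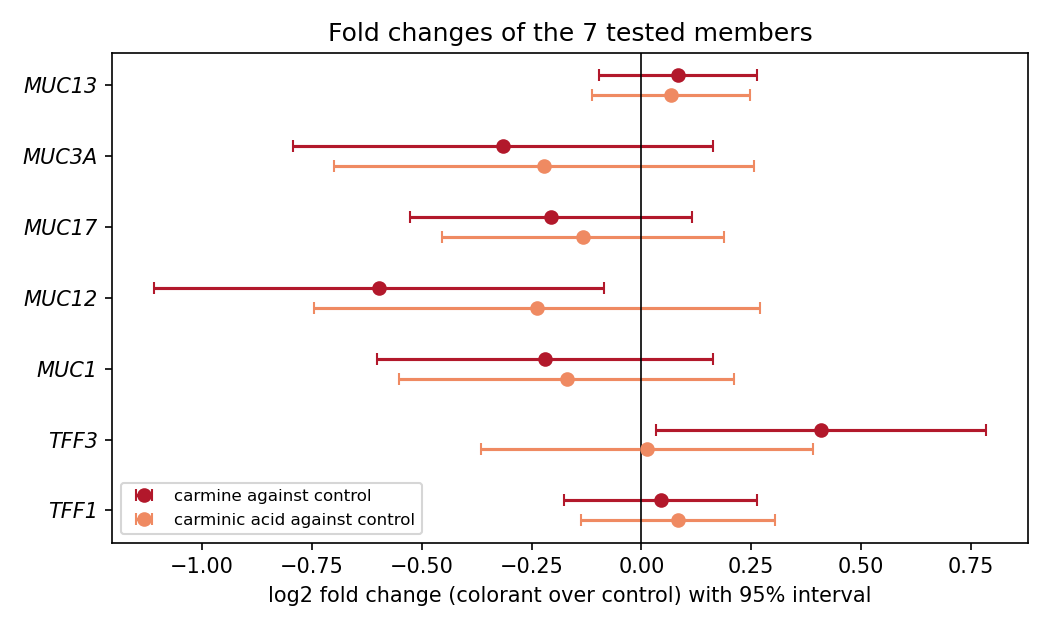
Log2 fold changes of the 7 tested members, carmine over control and carminic acid over control, with 95% intervals from the edgeR fit. The intervals of MUC12 (-1.11 to -0.08) and TFF3 (0.03 to 0.78) with carmine leave 0 out before adjustment, and the other 12 cross it.

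Genes that make, decorate or release mucins were also given from lists, and 0 of 64 tested list genes passed in either comparison by edgeR. At an unadjusted p under 0.05 there were 9 of 64 with carmine (7 higher and 2 lower), where 11% of all tested genes were, and 4 of 64 with carminic acid (4 higher), where 6.43% were. Groups did not overlap for 15% of all tested genes with carmine and 20.8% with carminic acid. Genes named below for a small p are likely to be among these. List genes without overlap in both comparisons also include GALNT6, GALNT12 and FUT2. The comparisons share the control libraries, and the share of all tested genes without overlap in both was not computed. Of 16 other mucin genes in the files 6 were tested: 5 of 6 had negative values with carmine (median log2 fold change -0.21) and 5 of 6 with carminic acid (-0.23), where 51.7% and 48.1% of all tested genes had positive values. The highest level per kb among them was that of CD164, a sialomucin of endosomes and the cell surface, at 648 ± 72.7 CPM with carmine and 559 ± 36.5 CPM with carminic acid, against 601 ± 32.6 CPM in control (log2 fold changes 0.11 and -0.10). MCAM, an adhesion molecule also listed as a mucin, had the smallest p with carmine (-0.22, edgeR adjusted p = 0.546) and MUC19, a gel mucin gene, with carminic acid (-0.52, edgeR adjusted p = 0.729, and -0.26 without carminic acid C). MUC21, MUC22 and EMCN had 0 counts. No gene in the files matched the symbol MUC3B, so it was not analysed.

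Of 12 other goblet cell products 11 were tested, with 8 positive values with carmine (median 0.13) and 6 with carminic acid (median 0.07). Among all tested genes 51.7% and 48.1% had positive values. KLK1, the tissue kallikrein gene, stood at 40.7, 45.0 and 43.4 CPM with carmine, at 39.1, 46.7 and 41.5 CPM with carminic acid, and at 38.0, 36.2 and 35.2 CPM in control. All 6 treated libraries lay above the 3 control libraries. Among all tested genes, 15% with carmine and 20.8% with carminic acid had groups without overlap. As the gene with the smallest p of the list with carmine, KLK1 was likely to separate. Its log2 fold changes were 0.24 with carmine (edgeR adjusted p = 0.384) and 0.22 with carminic acid (edgeR adjusted p = 0.717), and its control libraries are the same in each. FCGBP had 8.04, 8.64 and 11.02 CPM with carmine, 9.79, 11.5 and 9.99 CPM with carminic acid and 8.37, 7.19 and 8.53 CPM in control, with no overlap between carminic acid and control (0.38, edgeR adjusted p = 0.717). Other genes of the list had negative values. SPINK4 had the largest change with carmine, at 0.137, 0.178 and 0.419 CPM (only 8, 10 and 23 counts). It stood at 0.333, 0.357 and 0.199 CPM with carminic acid and at 0.358, 0.636 and 0.491 CPM in control (20, 36 and 28 counts). Its log2 fold changes were -1.02 with carmine (edgeR unadjusted p = 0.0341, adjusted p = 0.435) and -0.73 with carminic acid (edgeR adjusted p = 0.717). With 1 library left out the value for carmine ran from -1.63 to -0.73. Carminic acid lay below control with no overlap. AGR3, a relative of AGR2, lay below control in all libraries of each colorant (-0.40 and -0.30, edgeR adjusted p = 0.454 and 0.717). SPINK4 and AGR3 were chosen after their values were seen. AGR2, a disulfide isomerase needed for mucin folding and the highest of the list per kb, stood at 186 ± 23.3 CPM with carmine and 193 ± 32.1 CPM with carminic acid, against 212 ± 27.05 CPM in control (SD, n = 3).

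Of 9 transcription factor genes of the secretory and goblet lineage 8 were tested, all but ATOH1, with medians of 0.02 with carmine and 0.01 with carminic acid. CDX2, the intestinal master regulator that also acts on the MUC2 promoter, had both the highest level per kb and the smallest p, at 217 ± 31.9 CPM with carmine and 216 ± 21.7 CPM with carminic acid, against 193 ± 11.1 CPM in control (0.17 and 0.16, edgeR adjusted p = 0.527 and 0.717). Carmine C was the highest library at 253 CPM, and without it the value for carmine was 0.05. Notch signalling steers progenitors to the absorptive fate by repressing ATOH1 through HES1. Of its 8 listed genes 6 were tested, with medians of -0.09 and -0.01. HES1 stood at 27.9 ± 2.84 CPM with carmine and 24.9 ± 0.814 CPM with carminic acid, against 27.4 ± 0.927 CPM in control (0.02 and -0.14), with no overlap between carminic acid and control, and NOTCH2 had -0.19 with carmine (edgeR adjusted p = 0.478, and -0.12 without carmine C).

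Of 27 enzymes of mucin-type O-glycosylation 22 were tested, with 10 positive values with carmine and 9 with carminic acid (medians -0.02 and -0.06). Among all tested genes 51.7% and 48.1% had positive values. GALNT2, which attaches the first sugar, had the highest level per kb, with 247 ± 15.3 CPM with carmine and 261 ± 8.44 CPM with carminic acid, against 231 ± 3.53 CPM in control. Its relative GALNT12 had the smallest p with carmine (0.24, edgeR adjusted p = 0.384), and GALNT6 with carminic acid (0.18, edgeR adjusted p = 0.717).

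Of 10 genes of mucin folding, granule release and processing 8 were tested, and 7 of 8 had positive values with each colorant (medians 0.17 and 0.08). Among all tested genes 51.7% with carmine and 48.1% with carminic acid had positive values, and the comparisons share the control libraries. SLC26A3, the apical chloride-bicarbonate exchanger whose bicarbonate helps mucus to unfold, stood at 204, 195 and 180 CPM with carmine, at 182, 176 and 196 CPM with carminic acid, and at 163, 163 and 173 CPM in control, with no overlap (0.21 and 0.15, edgeR adjusted p = 0.380 and 0.717). VAMP8, a vesicle fusion protein of mucin granules and the highest of the list per kb, had 132 ± 20.3 CPM with carmine and 114 ± 7.32 CPM with carminic acid, against 110 ± 2.14 CPM in control. Its log2 fold change with carmine was 0.27, and 0.14 without carmine C, which stood at 155 CPM. Among 3 partners of membrane mucins, LGALS3, a galectin that crosslinks their sugars, stood at 512 ± 126 CPM with carmine and 422 ± 9.76 CPM with carminic acid, against 429 ± 12.96 CPM in control (0.25 and -0.02). Carmine C stood at 655 CPM and the other carmine libraries at 418 and 462 CPM, and without carmine C the value was 0.04. GOPC, a Golgi scaffold protein, had -0.05 and -0.13.

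**Figure D5:**
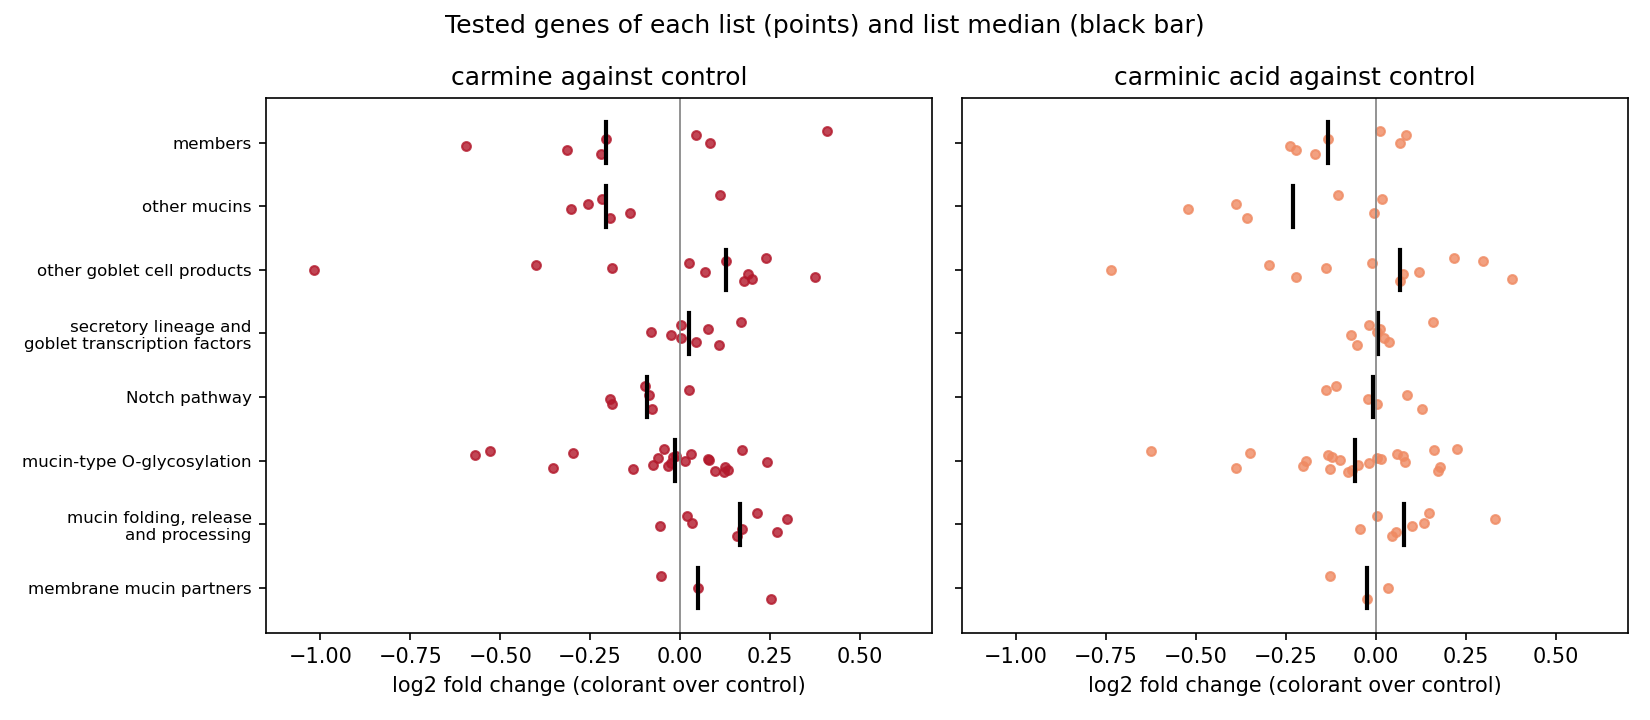
Log2 fold changes of the tested genes of each list, carmine over control at left and carminic acid over control at right, with the list's median as a black bar. The medians lie between -0.23 and 0.17.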

How the data were processed

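The authors deposited unnormalized whole-number counts for each NCBI Gene ID, in 1 file per library. The file headers show HISAT2 as the aligner. Per the submitters' processing notes, FastQC, HISAT and featureCounts were used and the build was hg38, with no versions. Symbols and positions came from RefSeq (GRCh38.p14; 27745 of 28395 IDs matched), transcripts from GENCODE, and promoters from RefSeq, which held them for 7 of the 10 members.

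Counts were tested in R 4.3.3 with edgeR 4.0.16: filterByExpr by group, TMM factors, and 1 robust quasi-likelihood fit of all 9 libraries without covariates, two-sided, with Benjamini-Hochberg adjustment within each comparison over its 16017 tested genes. The code was checked on simulated counts. Intervals are 95% intervals. Alternatives used RLE factors, library size alone, other filters, DESeq2 1.42.0 and limma-voom (limma 3.58.1). The limma-voom fit was robust and used library quality weights, so libraries do not count equally in it. Further alternatives were the 6 libraries compared, a replicate block, and leaving out each library. Length and GC trends were also removed (splines with 4 df per library over 96.5% of tested genes). Libraries of 1 group differed by more than sampling noise (chi-square per degree of freedom 9.51 or more).

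The members and lists were chosen with earlier results of these data known. Named genes were all members and, per list, the gene with the smallest p in each comparison and the highest level per kb, and the 5 genes most like the member with the highest level. The correlations of members were added after seeing the data.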

Additional observations from a re-analysis of the deposited data

How the results depend on the processing

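Of 252 alternative values of the members' fold changes, 240 kept their direction and 12 reversed, and no member passed an adjusted p of 0.05 under any alternative. Reversed values were 0.021 for MUC12 with carminic acid in limma-voom, which weights libraries by quality. For TFF3 with carminic acid they were -0.014 with library size alone and -0.0031 with length and GC trends removed. With 1 library left out they ranged, with carmine, from -0.33 to 0.011 for MUC17, -0.0010 to 0.11 for TFF1 and -0.0089 to 0.14 for MUC13, and with carminic acid from -0.36 to 0.049 for MUC3A, -0.47 to 0.11 for MUC12, -0.26 to 0.078 for MUC17 and -0.10 to 0.20 for TFF3; 5 of the reversals were those without control A. The cause was not tested.

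For 19 named genes of the lists, 331 of 342 values with 1 library left out kept their direction. The others were those of GOPC (-0.10 to 0.037) and HES1 (-0.023 to 0.11) with carmine, and of MCAM (-0.054 to 0.066), NOTCH2 (-0.063 to 0.061) and TFF2 (-0.0063 to 0.19) with carminic acid. Leaving libraries out of the lists was added after seeing the data.

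At an unadjusted p under 0.05, 2 members were called with carmine and 0 with carminic acid. With carmine 1 was called in limma-voom and 1 with trends removed, TFF3 in each, and 0 to 3 with 1 library left out (0 without carmine C, 3 without control B). Over all genes 0 passed in each comparison in edgeR as reported, against, with carmine, 1760 at an unadjusted p, 219 with trends removed, 75 in DESeq2, 51 in limma-voom, 19 without a filter, 12 when fitted on its own 6 libraries, 7 by RLE factors and 7 by library size alone (0 to 36 with 1 library left out, the highest without carmine C). With carminic acid these were 1030 at an unadjusted p, 82 in limma-voom, 49 when fitted on its own 6 libraries, 8 in DESeq2, 4 with trends removed and 2 without a filter (0 to 21, the highest again without carmine C). With the replicate letter as a block, 0 genes and 0 members passed in each comparison. Deviations of libraries with a shared letter correlated at -0.149 to 0.0669, so no pairing by letter was made.

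Of 33 alternatives of the 3 correlations between MUC3A, MUC12 and MUC17, none reversed and 21 no longer passed after adjustment over the 21 pairs, among them all 3 without control A (r 0.834, 0.646 and 0.595). Depth limits what can be said of MUC2, MUC5AC and SPDEF, with 3, 42 and 29 counts in all libraries together.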
